A study of Arabidopsis thaliana with 9 samples.

Results

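A pair of Arabidopsis thaliana lines that make larger leaves by different routes, 35S::GA20OX and 35S::JAW, were pooled and set against wild type. The comparison uses all 9 of the 9 arrays of the series and all 20777 loci of the expression table: the mean of the 3 arrays of 35S::GA20OX and the mean of the 3 arrays of 35S::JAW were averaged with equal weight, and the mean of the 3 wild type arrays was subtracted. It asks which transcripts differ from wild type in both kinds of large-leaved plant. Every plant was of the Col-0 accession, grown in vitro on MS medium at 22 °C under 16 h of light and 8 h of dark, and RNA came from the vegetative part of seedlings at growth stage 1.03. The labels do not say which organs that part holds besides leaves, and in such bulk RNA fewer cells of a type and less RNA per cell cannot be told apart. Replicates are labelled as biological, and the labels do not say whether each line is a single transformant. Text that accompanies the series also speaks of a GRF5 overexpressing line, which none of the samples analysed here carries.

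In 35S::GA20OX, the 35S promoter, which is active in most cells, drives a gibberellin 20-oxidase. Gibberellins are growth hormones that trigger the breakdown of DELLA repressors, and 20-oxidases catalyse a late and often limiting part of their synthesis, so that plants with more of the enzyme have longer and larger organs. In 35S::JAW the same promoter drives the JAW locus, which encodes a microRNA of the miR319 family. That microRNA directs cleavage of the transcripts of a group of TCP transcription factors of the CIN class, which normally bring cell division in the leaf to an end from tip to base, and plants short of these TCP factors have large, crinkled leaves. Both lines thus enlarge leaves, one through a hormone and one through the timing of cell division.

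Array medians lay between 6.35 and 6.41 on the log2 scale, and the median SD between arrays of one genotype was 0.089. The median standard error (SE) of a difference between the average of the lines and wild type was 0.072, and for a single line it was 0.083. Genes of light harvesting and the photosystems, which mark green tissue, had a median wild type value of 13.8, against 6.39 for the average locus, while the medians of the root, flower and seed marker lists were 4.71, 4.08 and 3.96. Brightness differs between probes, so these levels describe the arrays and do not rank genes. The wild type arrays were not equally alike at every locus: 8 loci had an SD above 1 among them, and in 7 of these replicate 2 was the highest and replicate 1 the lowest in 7. The glucosyltransferase gene UGT74E2, for instance, stood at 5.35, 8.16 and 7.30 in wild type replicates 1, 2 and 3, at 7.57, 5.51 and 5.89 in 35S::GA20OX and at 5.46, 5.13 and 5.15 in 35S::JAW. In what follows, 3 values in a row are always replicates 1, 2 and 3.

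In the average of both lines, 360 of the 20777 loci (1.73%) passed an adjusted p of 0.05 in limma's moderated test and are called here. Of these, 168 (0.809% of all loci) were higher than in wild type and 192 (0.924%) were lower. Every count of called list members below is to be read beside these shares. Most of the differences were small: 4 of the higher and 24 of the lower loci reached 2-fold, and the smallest called difference was 0.24 on the log2 scale. Without adjustment, 2574 loci had a p under 0.05. Over all loci the median difference was 0.01 for the average, 0.00 for 35S::GA20OX and 0.01 for 35S::JAW.

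An average can be pulled away from 0 by a single line. The contrast of 35S::JAW with 35S::GA20OX tests whether the lines differ, which a locus can do while both lines depart from wild type. Its difference uses no wild type array, though its spread was estimated over all 9 arrays. This contrast called 2749 of all loci (13.2%), 6.71% with 35S::JAW higher and 6.52% with it lower, and 274 of the 360 loci called in the average (76.1%) were among them. For 118 of the 123 higher loci in that group 35S::JAW lay above 35S::GA20OX, and for 149 of the 151 lower loci it lay below. The medians show the same imbalance: among the higher loci they were 0.46 for the average, 0.09 for 35S::GA20OX and 0.80 for 35S::JAW, and among the lower loci -0.48, -0.07 and -0.90. Most calls in the average were thus loci at which 35S::JAW stood further from wild type.

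Of the 360 called loci, 151 (41.9%) had all 6 transgenic arrays on one side of the whole wild type range, and 71 of these were also called between the lines, 33 of them higher and 38 lower. The other 80 had no call in the contrast of the lines, 42 of them higher and 38 lower. Over all loci, whether called or not, all 6 transgenic arrays lay above wild type at 421 (2.03%) and below it at 413 (1.99%). The 42 higher loci had median differences of 0.37 in the average, 0.36 in 35S::GA20OX and 0.43 in 35S::JAW. For the 38 lower loci the medians were -0.43, -0.41 and -0.49. Only 2 of the 80, both lower, reached 2-fold. Against wild type on its own, 35S::GA20OX was called at 5 of the 42 higher and 11 of the 38 lower loci, and 35S::JAW at 40 and 35. P-values were adjusted within each contrast, so these counts do not compare the size of the differences in the lines. At AT5G01870 the difference was -0.83 in 35S::GA20OX (limma adjusted p = 0.0563) and -0.76 in 35S::JAW (adjusted p = 0.0111), with the same SE. A missing call between the lines does not show that the lines are equal there, and both lines are compared with the same 3 wild type arrays, so a wild type array that stands apart moves both in the same direction. When each of the 9 arrays was left out in turn, 17 of the 80 loci kept their call every time, and the size of the group fell to 26 without wild type replicate 3, to 30 without replicate 1 and to 38 without replicate 2. With 3 wild type against 6 transgenic arrays, omitting a wild type array costs more precision than omitting a transgenic one. A call lost in this way, here or below, therefore does not by itself mark a wild type array as unusual. The remaining 6 called loci, 3 higher and 3 lower, showed no call between the lines but overlapped with wild type.

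**Figure D1:**
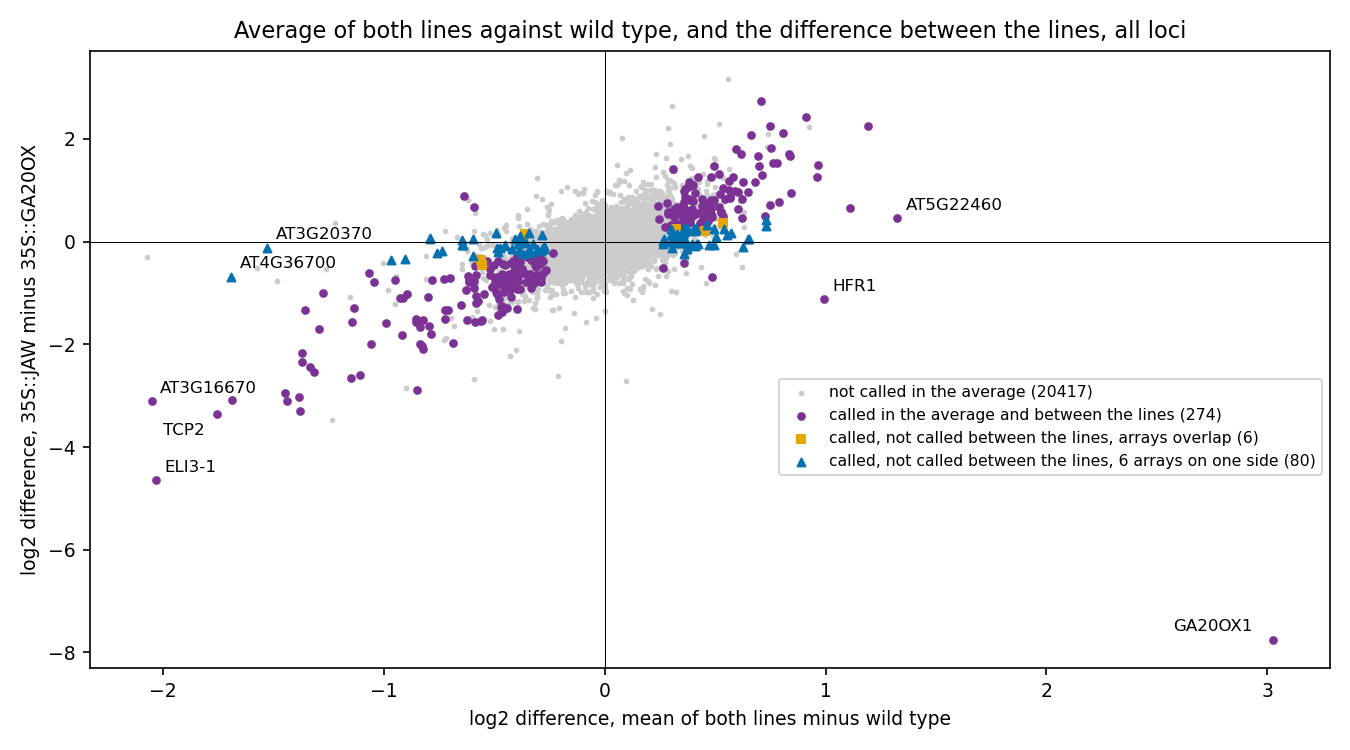
Each point is 1 of the 20777 loci. The horizontal axis is the log2 difference of the mean of both lines from wild type, and the vertical axis the log2 difference of 35S::JAW from 35S::GA20OX. The 274 loci called in both tests mostly lie along a rising diagonal, and GA20OX1 stands apart at 3.03 and -7.75. The 80 loci called in the average alone and without overlap lie around the horizontal line at 0, since they were chosen for having no call in the vertical difference.

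The genes that the transgenes act on gave the plainest examples of an average that rests on a single line. GA20OX1 (AT4G25420), the overexpressed oxidase, read 6.03, 6.14 and 6.01 in wild type, 12.94, 12.94 and 13.01 in 35S::GA20OX and 5.07, 5.45 and 5.11 in 35S::JAW. The lines lay on opposite sides of wild type, by 6.90 upward and by -0.85 downward, and the average of 3.03 ± 0.08 (SE) describes neither. TCP2 (AT4G18390), a target of the microRNA, read 9.59, 9.54 and 9.65 in wild type, 9.55, 9.43 and 9.58 in 35S::GA20OX and 6.22, 6.14 and 6.13 in 35S::JAW. Its average of -1.76 came from 35S::JAW, in which no array overlapped with the other genotypes. The other targets had averages of -1.69 for TCP3, -1.45 for TCP4, -1.37 for TCP24 and -0.92 for TCP10, and differences of -0.15, 0.02, -0.20 and -0.01 in 35S::GA20OX, none of which was called. For TCP3 and TCP24 all 3 arrays of 35S::GA20OX nevertheless lay just under the lowest wild type array, whereas those of TCP2, TCP4 and TCP10 overlapped with wild type. Each line's target thus followed its label on every array, and GA20OX1 was in addition lower in 35S::JAW than in wild type (adjusted p = 0.000235 in limma).

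Of 13 measured genes of late anthocyanin synthesis and its regulators, 4 fell in the average and none rose, against 0.924% of all loci that fell, and in all 4 both lines lay under wild type. Anthocyanins are the red and purple flavonoid pigments of stressed or strongly lit shoots, and PAP1 (AT1G56650, also MYB75) is the MYB transcription factor that switches on the late genes of their pathway. PAP1 read 5.05, 5.01 and 5.10 in wild type, 4.36, 4.36 and 4.50 in 35S::GA20OX and 4.21, 4.25 and 4.07 in 35S::JAW. All 6 transgenic arrays lay well under the lowest wild type array, and the 3 wild type arrays lay close together. PAP1 was dim on every array, under the median of 6.39 over all loci, and RMA compresses differences of dim loci. Its average difference was -0.76 ± 0.06 (SE), or 1.69-fold lower (limma adjusted p = 0.000116), with -0.64 in 35S::GA20OX and -0.87 in 35S::JAW. The lines differed by -0.23 with an adjusted p of 0.0603 in limma. PAP1 also stayed called when all 6 transgenic arrays shared a single mean, a test in which differences between the lines count as spread and 4 of the 20777 loci remained.

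Enzymes that act late in the pathway were lower as well. DFR (AT5G42800), dihydroflavonol reductase, the first enzyme of the branch to anthocyanins, read 7.54, 7.06 and 7.64 in wild type, 6.50, 6.66 and 6.76 in 35S::GA20OX and 5.92, 5.49 and 5.51 in 35S::JAW. GSTF12 (AT5G17220), the glutathione transferase TT19 that carries anthocyanin towards the vacuole, read 7.58, 7.18 and 7.56, then 6.68, 6.58 and 6.78, then 6.16, 6.10 and 5.95. For both genes the 3 genotypes formed separate steps with no overlap, wild type highest and 35S::JAW lowest. DFR fell by 1.28 in the average (2.42-fold, adjusted p = 0.000633 in limma) and GSTF12 by 1.07 (2.09-fold, adjusted p = 0.000199), and both were called between the lines, with differences of -1.0 and -0.61 for 35S::JAW from 35S::GA20OX. DFR taken alone was not called in 35S::GA20OX (-0.78, adjusted p = 0.0786), whereas GSTF12 was (-0.76, adjusted p = 0.0153).

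Enzymes that decorate the pigment followed. UGT79B1 (AT5G54060), which adds xylose to the anthocyanin's glucose, read 6.85, 6.68 and 7.10 in wild type, 6.31 at the highest in 35S::GA20OX and 5.65, 6.03 and 5.74 in 35S::JAW. AT5MAT (AT3G29590), the anthocyanin malonyltransferase, read 5.56, 5.14 and 5.23, then 4.61, 4.79 and 4.65, then 4.66, 4.90 and 4.66. Both are among the loci named by a rule that required no overlap with wild type, and the 6 transgenic arrays of AT5MAT were intermixed. The differences were -0.90 ± 0.11 (SE) for UGT79B1 (adjusted p = 0.00168, limma) and -0.60 ± 0.10 for AT5MAT (adjusted p = 0.00986). Calls for PAP1, DFR, GSTF12, UGT79B1 and AT5MAT held when any 1 array was left out.

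The list, which holds regulators of the pathway as well as its enzymes, did not move as a whole. The 4 genes of the list that fell were PAP1, DFR, GSTF12 and UGT79B1, and the list median was 0.02, beside 0.01 over all loci. That median describes activators and repressors too, and not the enzymes alone. The count covers only entries that the symbols matched: 5 entries of the list, among them the anthocyanin glucosyltransferase UGT75C1 and the malonyltransferase AT5MAT under another spelling, matched no locus. An unmatched gene can still be on the arrays under another symbol, as AT5MAT was, or under a locus code alone. The partners of PAP1 in the regulatory complex, TT8, EGL3 and TTG1, had average differences of -0.06, 0.10 and -0.15, none of them called, and its relatives MYB113 and MYB114 0.12 and 0.05. Repressors of the pathway went in opposite directions in the lines: MYBL2 was at -0.45 in 35S::GA20OX and 0.50 in 35S::JAW, LBD38 at -0.19 and 0.62, and LBD39 at -0.28 and 0.57, with averages of 0.02, 0.22 and 0.15 that were not called.

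Of 15 genes for the earlier flavonoid steps, 1 fell. CHS (AT5G13930), chalcone synthase, the entry enzyme of all flavonoids, read 9.54, 9.38 and 9.82 in wild type, 8.61, 8.91 and 8.44 in 35S::GA20OX and 9.37, 9.36 and 9.27 in 35S::JAW. Here 35S::GA20OX was the lower line, and the highest array of 35S::JAW lay just under the lowest of wild type. The average was -0.59 ± 0.11 (SE; adjusted p = 0.0213 in limma), the lines differed by 0.68 (adjusted p = 0.00482), and the call was lost without wild type replicates 1 or 3, 35S::GA20OX replicate 1 or 35S::JAW replicate 3 (adjusted p up to 0.112). The flavonol gene FLS1 followed the order of CHS, with -0.66 and -0.13, and was not called in the average (-0.39, adjusted p = 0.0994). The list median was -0.03.

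**Figure D2:**
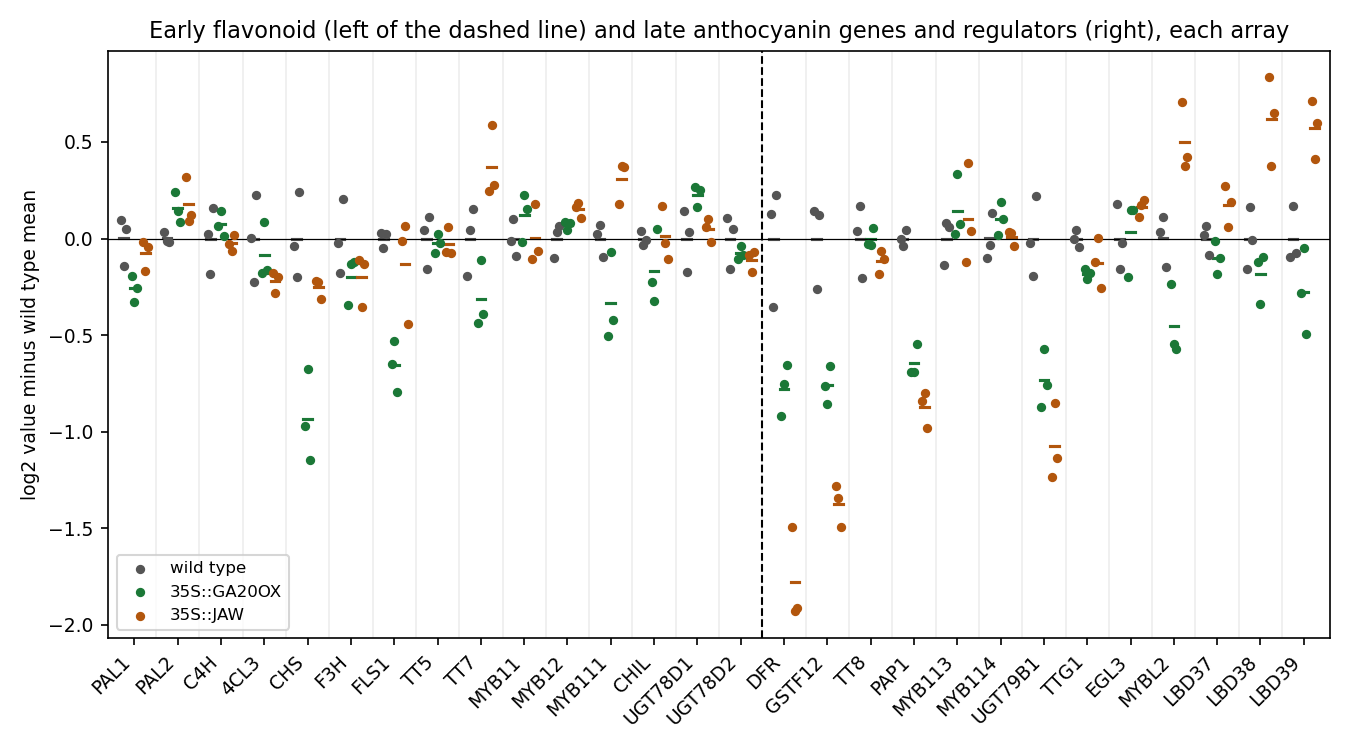
Each point is an array, plotted as its log2 value minus the wild type mean of that gene, with bars at the genotype means. Grey is wild type, green 35S::GA20OX and orange 35S::JAW. Right of the dashed line DFR, GSTF12, PAP1 and UGT79B1 have both lines well under wild type, while MYBL2, LBD38 and LBD39 have the lines on either side of it.

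Several of the strongest shared decreases were in genes that the annotation used here does not name. AT3G20370 read 9.42, 8.88 and 8.94 in wild type, 7.56, 7.42 and 7.85 in 35S::GA20OX and 7.73, 7.24 and 7.51 in 35S::JAW. The 6 transgenic arrays were intermixed and stood far under wild type, and the locus fell by 1.53 ± 0.14 (SE), or 2.88-fold (limma adjusted p = 0.000256), with -1.47 and -1.59 in the lines. AT4G36700 read 6.16, 6.41 and 6.53, then 5.56, 4.40 and 5.10, then 4.59, 4.31 and 4.11. It fell by 1.69 (3.23-fold, adjusted p = 0.00168), and 35S::GA20OX replicate 2 lay among the arrays of 35S::JAW while the other arrays of that line lay higher. AT4G14090 read 6.73, 6.65 and 7.08, then 5.90, 6.10 and 6.10, then 5.63, 5.86 and 5.55, and fell by 0.96 (adjusted p = 0.000649). The rule that named these 3 loci required that they did not overlap with wild type. None of them lost its call when an array was left out.

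Smaller decreases of the same kind were seen at AT1G52100 (-0.79), AT5G45840 (-0.65), AT5G01870 (-0.79) and AT1G12030 (-0.64). AT5G01870 was no longer called without wild type replicate 1 or 3 (adjusted p up to 0.0797). AT1G12030 lost its call without any of the 3 wild type arrays, 35S::GA20OX replicate 1 or 35S::JAW replicates 1 or 3 (adjusted p up to 0.189). The loci AT1G52100 and AT5G45840 kept theirs, and their transgenic means were close, at -0.82 and -0.76 for AT1G52100 and at -0.62 and -0.68 for AT5G45840.

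**Figure D3:**
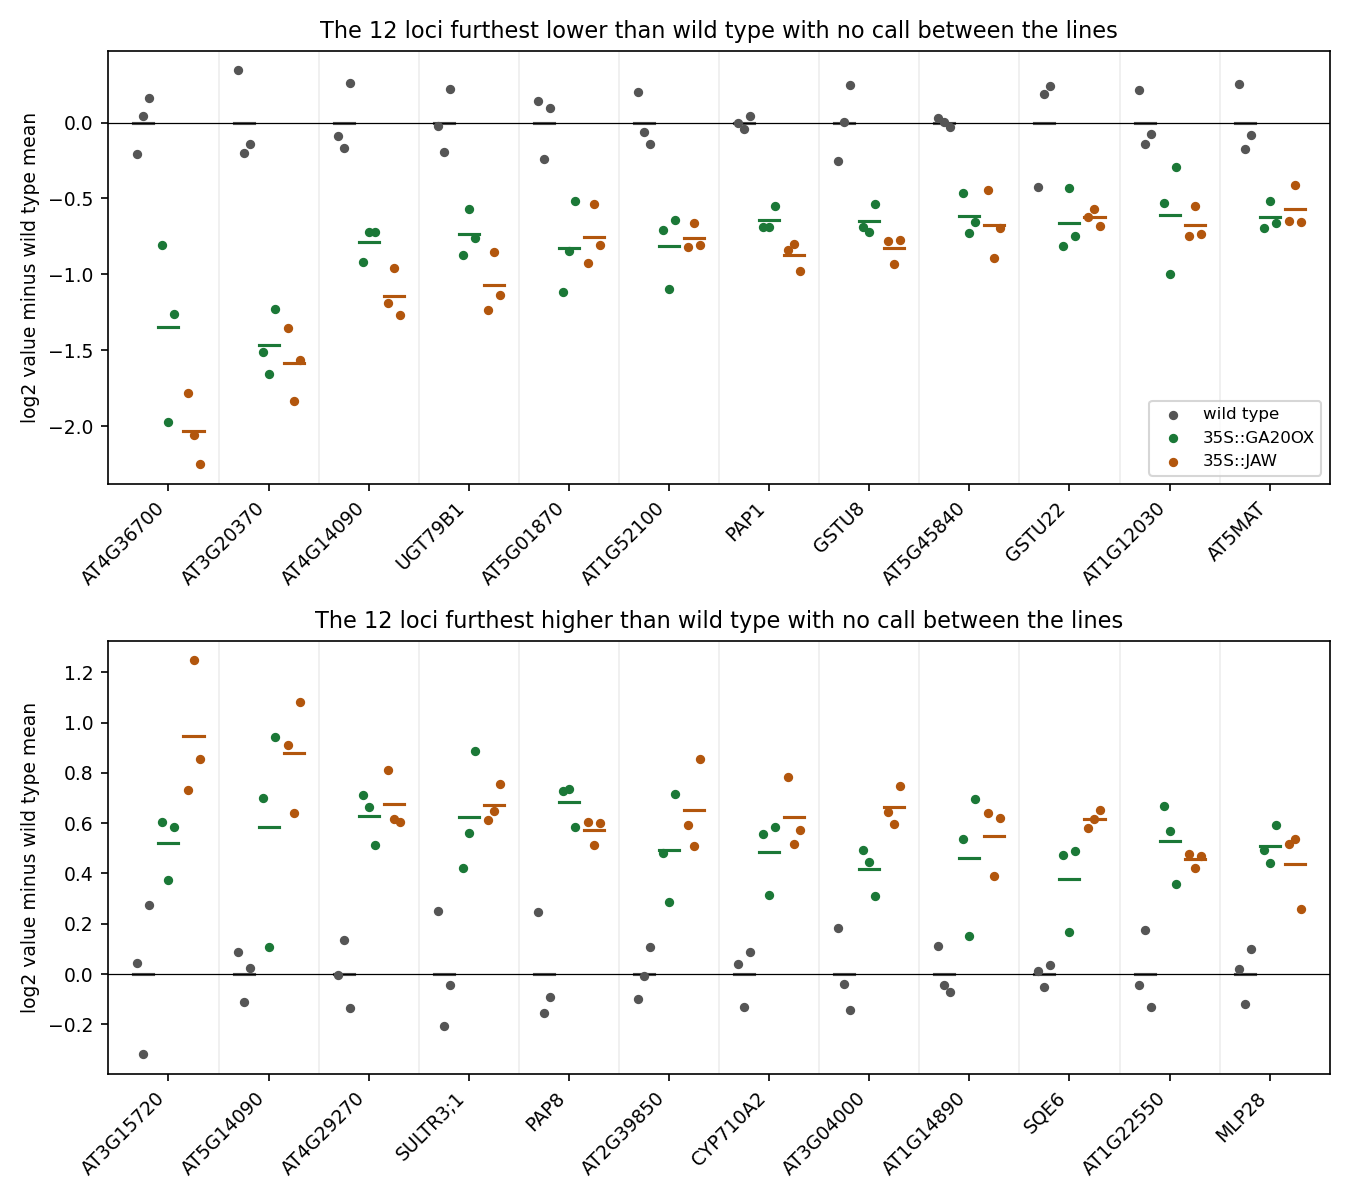
The 12 loci furthest below (upper panel) and above (lower panel) wild type among those called in the average, without overlap and without a call between the lines. Points are arrays as log2 values minus the wild type mean and bars are genotype means. The decreases reach -1.69 and the increases 0.73. By the rule of selection, green and orange points lie on the same side of all grey points in both panels.

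GSTU8 and GSTU22, which encode tau-class glutathione transferases, were among the shared decreases. These enzymes conjugate glutathione to reactive compounds and are induced by chemical and oxidative stress. GSTU8 (AT3G09270) read 5.24, 5.50 and 5.74 in wild type, 4.81, 4.77 and 4.96 in 35S::GA20OX and 4.71, 4.56 and 4.72 in 35S::JAW. GSTU22 (AT1G78340) read 4.55, 5.17 and 5.22, then 4.16, 4.55 and 4.23, then 4.41 at the highest in 35S::JAW. In GSTU22 wild type replicate 1 touched the highest 35S::GA20OX array, while replicates 2 and 3 stood clear of all others. GSTU8 fell by 0.74 ± 0.10 (SE; adjusted p = 0.00289, limma) and GSTU22 by 0.64 ± 0.14 (adjusted p = 0.0429), and GSTU22 kept its call only without wild type replicate 1 or 35S::GA20OX replicate 2 (adjusted p up to 0.206 otherwise).

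The family was then read in full, a choice made after these values were seen. Of 27 GSTU genes measured, 5 fell (GSTU1, GSTU8, GSTU22, GSTU25 and GSTU27), none rose, and 6 had all transgenic arrays under wild type, against 0.924% and 1.99% of all loci, with a family median of -0.10 and a range from -1.57 to 0.34. GSTU25 fell by 0.59 with no call between the lines (adjusted p = 0.0621), whereas GSTU1 (-0.91) and GSTU27 (-0.33) fell mostly in 35S::JAW and were called between the lines. The lowest member, GSTU24, read 5.09, 7.66 and 6.87 in wild type and between 4.40 and 5.76 in the transgenic arrays, and its average of -1.57 was not called (adjusted p = 0.116). GSTU24 and UGT74E2, both known to respond to chemical stress, thus stood high in wild type replicates 2 and 3. UGT74E2 was also high in 35S::GA20OX replicate 1, and the part of this spread in the GSTU differences was not tested. Wild type replicate 1 was also the lowest of the 3 in GSTU8, GSTU22 and GSTU25.

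**Figure D4:**
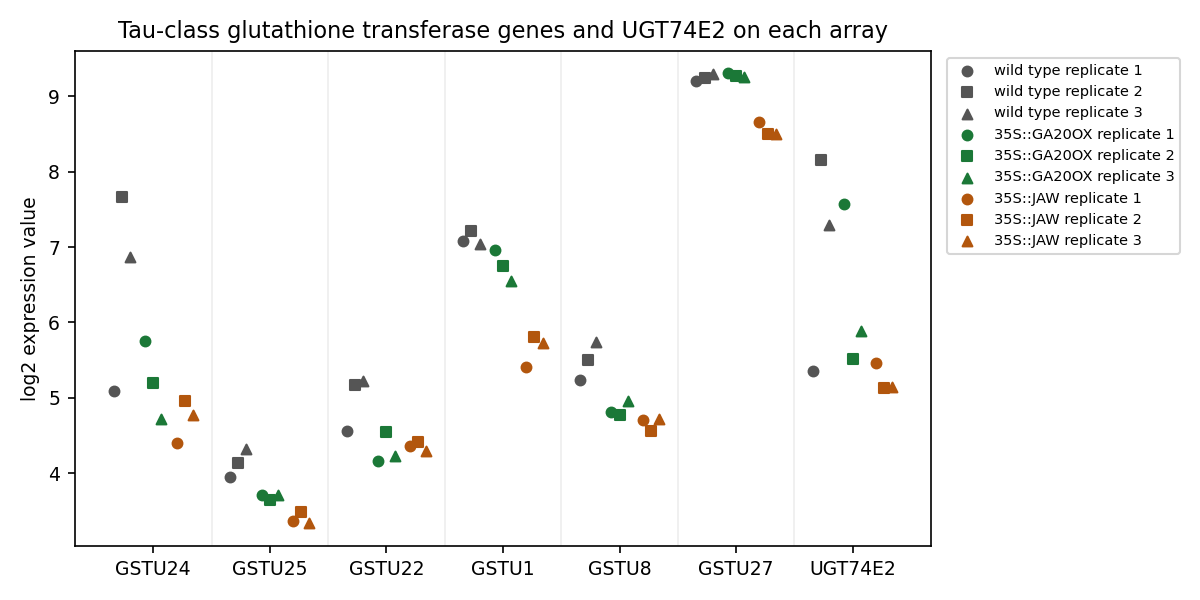
Log2 expression values on each array for 6 GSTU genes and UGT74E2, with colour for the genotype and marker shape for the replicate number. In GSTU24 and UGT74E2 wild type replicates 2 and 3 lie above replicate 1, and in GSTU8, GSTU22 and GSTU25 all 6 transgenic arrays lie under the lowest wild type array or level with it.

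The 42 increases without a call between the lines reached 0.73, and the 38 decreases -1.69. Of the 12 named increases, 3 (AT4G29270, PAP8 and MLP28) were called in 35S::GA20OX alone, and of the 12 named decreases 9 were. Since p-values were adjusted within each contrast, a missing call in that line does not mean a smaller difference than in 35S::JAW. AT4G29270 read 6.19, 6.33 and 6.05 in wild type, 6.90, 6.85 and 6.70 in 35S::GA20OX and 6.79 at the lowest in 35S::JAW, a rise of 0.65 ± 0.08 (SE; adjusted p = 0.00164, limma) with lines that differed by 0.05. PAP8 (AT2G01890), a purple acid phosphatase, read 8.67, 8.27 and 8.33, then 9.15, 9.16 and 9.01, then 9.03, 8.94 and 9.02. It rose by 0.63 ± 0.09 (adjusted p = 0.00369), and wild type replicate 1 came nearest to the transgenic arrays. SQE6 (AT5G24160), a squalene monooxygenase, rose by 0.50 (adjusted p = 0.00659), and CYP710A2 (AT2G34490), a sterol desaturase, by 0.56 (adjusted p = 0.00732). In 35S::GA20OX alone neither was called, at 0.38 (adjusted p = 0.122) for SQE6 and 0.49 (adjusted p = 0.0809) for CYP710A2. CYP710A2 read 7.69, 7.52 and 7.74, then 8.21, 7.97 and 8.24, then 8.44, 8.17 and 8.23. Its lack of overlap and of a call between the lines was a condition of being named. Its call, like those of AT4G29270, PAP8, SQE6 and AT3G04000 (0.54), held without any 1 array.

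The other 7 of the 12 named increases were lost when single arrays were left out. SULTR3;1 (AT3G51895), a sulphate transporter, rose by 0.65 and lost its call without wild type replicates 2 or 3 (adjusted p up to 0.0854, limma). AT5G14090, with the synonym LAZY1, a gene of shoot gravitropism, rose by 0.73 with an adjusted p of 0.0432. Its arrays of 35S::GA20OX were spread from 5.31 to 6.14 against 5.09 to 5.29 in wild type, and the call held only without 35S::GA20OX replicate 2 or 35S::JAW replicate 2. AT3G15720 (0.73) needed wild type replicates 1 and 2 and 35S::GA20OX replicate 1, and AT2G39850 (0.57) each wild type array. MLP28 (0.47) lost its call without wild type replicates 1 or 2, AT1G22550 (0.49) without replicates 1 or 3, and AT1G14890 (0.51) without any wild type array, 35S::GA20OX replicates 1 or 3 or 35S::JAW replicates 1 or 3. Across these 7 loci the adjusted p under such omissions reached 0.0596 to 0.199.

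The 71 loci that were called between the lines and had all 6 transgenic arrays on one side of wild type are nearly as many as the 80. AT5G22460 is an example: 5.01, 5.10 and 5.25 in wild type, 6.13, 6.17 and 6.35 in 35S::GA20OX and 6.73, 6.56 and 6.72 in 35S::JAW. The 3 genotypes did not overlap, the average was 1.32 ± 0.08 (SE), or 2.51-fold (adjusted p = 4.27e-06 in limma), and 35S::JAW lay 0.46 above 35S::GA20OX (adjusted p = 0.00543). AT3G53250, with the synonym SAUR57, a member of a family of small auxin-responsive genes, rose by 1.11, with 0.78 and 1.44 in the lines, although the 35S::GA20OX value alone was not called (adjusted p = 0.0941). Wild type replicate 2, at 6.51, stood near the lowest 35S::GA20OX array at 6.69.

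HFR1 (AT1G02340), a bHLH protein that limits elongation in shade and acts in light signalling, was among the 5 higher loci at which 35S::GA20OX exceeded 35S::JAW. It read 5.95, 5.77 and 5.81 in wild type, 7.47, 7.11 and 7.62 in 35S::GA20OX and 6.55, 5.98 and 6.31 in 35S::JAW. The 35S::JAW arrays lay between the other genotypes, the lowest of them just above wild type. The average was 1.99-fold above wild type (adjusted p = 0.00258, limma), from log2 differences of 1.55 in 35S::GA20OX (adjusted p = 0.00166) and 0.44 in 35S::JAW (adjusted p = 0.11). Of 28 genes of light signalling, HFR1 and BBX25 (0.37, of which 0.06 in 35S::GA20OX and 0.68 in 35S::JAW) rose and none fell, with a list median of 0.01. The call for BBX25 held only without 35S::GA20OX replicate 2 or 35S::JAW replicate 2.

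Among the loci also called between the lines, and with the transgenes' targets left out, the 5 largest decreases in the average came from 35S::JAW. ELI3-1 (AT4G37980), an elicitor-activated gene of the cinnamyl alcohol dehydrogenase family, read 10.36, 10.36 and 10.32 in wild type, 10.68, 10.60 and 10.64 in 35S::GA20OX and between 5.92 and 6.05 in 35S::JAW. It was slightly above wild type in the first line and far under it in the second, and the average of -2.03 hides the opposite signs of 0.29 and -4.36. AT3G16670 (-2.05), AT1G31690 (-1.44), AT1G51090 (-1.39) and AT1G31680 (-1.38) had differences of -0.50, 0.11, 0.13 and 0.27 in 35S::GA20OX, none of them called, and -3.60, -2.99, -2.90 and -3.03 in 35S::JAW. AT1G31680 and AT1G31690 carry neighbouring locus codes, and whether their probes cross-hybridise was not checked. Upward, AT5G01740 (1.19) and SCPL7 (AT3G10450, a serine carboxypeptidase-like gene, 0.97) had 0.07 and 0.22 in 35S::GA20OX against 2.32 and 1.71 in 35S::JAW.

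Brassinosteroids are growth steroids whose synthesis and breakdown set cell expansion. Of 15 genes of their metabolism and response, 3 fell and 2 rose, against 0.924% and 0.809% of all loci, and the list median was -0.01. BAS1 (AT2G26710), the cytochrome P450 that inactivates brassinosteroids, read 6.72, 6.65 and 6.68 in wild type, 6.22, 6.07 and 6.04 in 35S::GA20OX and 5.42, 5.25 and 5.41 in 35S::JAW. The genotypes formed separate steps. BAS1 fell by 0.95 ± 0.06 (SE; adjusted p = 1.97e-05, limma), was called in each line (-0.57, adjusted p = 0.0101, and -1.32, adjusted p = 1.41e-06), and differed between the lines by -0.75.

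The synthesis genes split. DWF4 (AT3G50660), which catalyses an early and limiting hydroxylation, read 8.05, 8.39 and 8.26, then 8.00, 7.79 and 7.82, then 7.05, 7.32 and 7.07. It fell by 0.73 (adjusted p = 0.00194, limma), with -0.37 in 35S::GA20OX, not called, and -1.09 in 35S::JAW. CYP90D1 (AT3G13730), a later hydroxylase, fell by 0.39 (adjusted p = 0.0379) with -0.37 and -0.42 in the lines and no call between them, and held only without 35S::GA20OX replicate 1 or 35S::JAW replicate 2 (adjusted p up to 0.188). ROT3 (AT4G36380), a close relative of CYP90D1 that promotes leaf length, rose by 0.49, from 0.09 and 0.88, and lost its call without wild type replicate 1 (adjusted p = 0.058). BEE3, a brassinosteroid-induced bHLH gene, rose by 0.58, from -0.05 and 1.21. BR6OX2, which makes brassinolide, had an average of -0.37 and all 6 arrays under wild type but was not called (adjusted p = 0.116).

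Gibberellin genes other than the transgene were not called in the average. Of 14 synthesis genes only GA20OX1 passed the test, and none of 10 inactivation genes, 13 genes of perception and DELLA proteins or 7 GASA family genes did. The medians of these lists were 0.07, -0.03, 0.02 and 0.08. Lines could differ here: RGL1, a DELLA gene, had an average of -0.22 and a difference between the lines of -1.02 (adjusted p = 3.37e-05, limma), and GASA4, a gibberellin-regulated gene, an average of 0.32 and a difference of 0.53.

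Auxin response genes were called in a single direction, and the calls came from 35S::JAW. Of 42 genes 6 fell and none rose, against 0.924% of all loci that fell, with a list median of -0.06, and 20 were called between the lines, against 13.2% of all loci. HAT2, an auxin-induced homeobox gene, fell by 0.83, IAA1, an Aux/IAA repressor gene, by 0.79, and SAUR65, a small auxin-responsive gene, by 0.71. Their differences in 35S::GA20OX lay between -0.05 and 0.03. IAA17 (-0.43), GH3.5 (-0.40) and IAA11 (-0.39) followed, and in IAA11 alone of the 6 did all transgenic arrays lie under wild type. Between 3 and 6 of the 42 were called when 1 array was left out. SAUR65 lost its call without any 1 wild type array, GH3.5 without those and 4 of the transgenic arrays, and IAA11 without wild type replicates 1 or 3. Cytokinin genes gave 2 decreases of 22, CKX4, a cytokinin oxidase (-0.59), and ARR16, a type-A response regulator (-0.55), with 0.20 and -0.04 in 35S::GA20OX. CKX4 lost its call without wild type replicates 1 or 3, and ARR16 without any 1 array of wild type or 35S::GA20OX.

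Jasmonate synthesis genes fell in 4 of 15 cases, against 0.924% of all loci, again with values from 35S::JAW. LOX2 (AT3G45140), the chloroplast lipoxygenase that starts the pathway, read 11.27, 11.29 and 11.25 in wild type, 11.16, 11.21 and 11.26 in 35S::GA20OX and 9.18, 9.17 and 9.28 in 35S::JAW. Only the last line stood apart. ACX1, an acyl-CoA oxidase (-1.33), AOS, the allene oxide synthase (-0.29), and JAR1, which conjugates jasmonate to isoleucine (-0.31), had 35S::GA20OX differences of -0.12, 0.11 and 0.02. AOS and JAR1 lost their calls in 7 and 8 of the 9 omissions of an array. In contrast JAZ6 (AT1G72450), a jasmonate-induced repressor gene, rose with both lines above wild type: 8.46, 8.28 and 8.21, then 8.73, 8.66 and 8.47, then 8.99, 8.76 and 9.05. The average was 0.46 (adjusted p = 0.0224, limma) and the call was lost without wild type replicates 2 or 3, 35S::GA20OX replicates 1 or 2 or 35S::JAW replicate 3. JAZ9 showed a similar average of 0.46 without overlap and was not called (adjusted p = 0.0505).

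Since both lines make larger leaves, genes of leaf growth were read next. AN3 (AT5G28640, GRF-interacting factor 1), a coactivator that sustains cell division in young leaves, read 6.36, 6.33 and 6.52 in wild type, 5.83, 5.90 and 6.25 in 35S::GA20OX and 5.81, 5.86 and 5.93 in 35S::JAW. All 6 transgenic arrays were under wild type, 35S::GA20OX replicate 3 only slightly. AN3 fell by 0.47 ± 0.09 (SE; adjusted p = 0.0239, limma), with -0.41 and -0.54, and the call was lost without any wild type array, 35S::GA20OX replicate 2 or 35S::JAW replicate 1 (adjusted p up to 0.136). Of 34 leaf size regulators AN3 fell and ROT3 rose. GRF1, a partner of AN3, had -0.24 without overlap and was not called (adjusted p = 0.124). The list median was 0.02.

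Few genes of the cell cycle were called. TSO2, a ribonucleotide reductase subunit that supplies DNA precursors, fell by 0.32 (adjusted p = 0.0483, limma) with -0.30 and -0.35 in the lines, was the only one of 25 S phase genes to be called, and kept its call in 1 of the 9 omissions. CDC6 and ETG1, replication genes, had -0.33 and -0.28 with all transgenic arrays under wild type and adjusted p of 0.0582 and 0.109. The S phase list had a median of -0.12, with -0.05 in 35S::GA20OX and -0.25 in 35S::JAW. None of 9 D-type cyclins, which move cells into division, was called. All of them had negative averages, from -0.31 for CYCD4;1 to -0.02 for CYCD3;1, with a median of -0.17, and CYCD4;1, CYCD3;3 and CYCD6;1 were without overlap. None of 23 genes of G2 and mitosis was called (median -0.04). SMR1, a cell cycle inhibitor, fell by 0.36, from -0.05 and -0.67, and kept its call in 2 of the 9 omissions.

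Few cell wall genes were called. None of 17 expansins matched by symbol was, with a list median of 0.05. EXP3 (AT2G37640, expansin A3), which carries an older symbol and fell outside that list, was found among the 80 loci after its value was seen. It read 9.29, 9.11 and 9.35 in wild type, 9.49, 9.57 and 9.65 in 35S::GA20OX and 9.60, 9.54 and 9.60 in 35S::JAW. The step was small but free of overlap, a rise of 0.32 ± 0.07 (SE; adjusted p = 0.0356, limma), and was called in 2 of the 9 omissions. Xyloglucan endotransglucosylases loosen and rejoin wall polymers. Of 21 of their genes, XTH7 (0.60) and XTH32 (0.48) rose and XTH17 (-0.39) fell, against 0.809% and 0.924% of all loci. The 35S::GA20OX differences were 0.12, 0.08 and 0.06, and the list median was 0.04. XTH32 lost its call without wild type replicates 2 or 3, and XTH17 without 7 of the 9 arrays.

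Epidermal and developmental regulators gave single calls. ETC2 (AT2G30420), a MYB that represses trichome formation, read 7.06, 6.97 and 6.73 in wild type, 6.41, 5.88 and 6.51 in 35S::GA20OX and 5.55, 5.40 and 5.49 in 35S::JAW. It was lower on every transgenic array, by 1.05 ± 0.12 (SE; adjusted p = 0.00161, limma), and lower in 35S::JAW than in 35S::GA20OX by 0.79. None of the other 10 of 11 trichome genes was called, and the list median was 0.07. Of 20 stomatal genes SCRM2 (-0.58), a bHLH of the stomatal lineage, and KAT2 (-0.41), a guard cell potassium channel, fell, with -0.05 and -0.13 in 35S::GA20OX. KAT2 lost its call without any 1 wild type array. Between the lines 12 of the 20 were called, against 13.2% of all loci, and the list medians were -0.19 in 35S::GA20OX and 0.09 in 35S::JAW. The mean over the list lay on single arrays between 6.43 and 6.58 in wild type, between 6.29 and 6.33 in 35S::GA20OX, wholly under it, and between 6.50 and 6.51 in 35S::JAW, within it. The part of this marker shift in the other differences was not tested. KNAT3, a homeobox gene, fell by 0.46, and no other of 23 genes of boundaries, KNOX proteins and leaf polarity was called.

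Genes of flowering, light harvesting and the clock added a few members. SPL4 (AT1G53160), a promoter of the adult phase, read 4.67, 4.65 and 4.68 in wild type, 4.11, 4.23 and 4.34 in 35S::GA20OX and 4.15, 4.34 and 4.55 in 35S::JAW. It was under wild type on all 6 arrays, by 0.38 in the average (adjusted p = 0.0491, limma), and kept its call in 1 of the 9 omissions. SOC1, a floral integrator, fell by 0.52, from -0.19 and -0.85. These were 2 of 24 genes of flowering and phase change. LHCB4.3, a light-harvesting protein gene, fell by 0.64, from -1.08 in 35S::GA20OX and -0.19 in 35S::JAW, the single call among 30 photosystem genes, and ELF4, a clock gene, by 0.65, from -0.04 and -1.26, a call that was lost without any 1 wild type array. The medians of the 3 lists were -0.06, -0.03 and -0.06.

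Defence and stress lists held calls of either sign. PR5, a pathogenesis-related gene, rose by 0.66 as the mean of opposite differences, -0.37 in 35S::GA20OX (adjusted p = 0.0477, limma) and 1.70 in 35S::JAW. CRK22, a receptor-like kinase gene, fell by 1.32 and WRKY54, a regulator of salicylic acid responses, by 0.89, with -0.05 and -0.39 in 35S::GA20OX. WRKY54 lost its call in 7 of the 9 omissions, and no more of the 33 genes of that list were called. WRKY70, the close relative of WRKY54, averaged -1.01 (-0.80 and -1.21) without a call (adjusted p = 0.115). LSU2, a sulphur deficiency gene, fell by 0.83, GSTU1 was the only call among 17 redox genes, HSFA7A, a heat shock factor, rose by 0.53, and CER8, a wax synthesis gene, rose by 0.37. In each of these the 35S::GA20OX difference was between -0.36 and 0.17 and was not called.

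Glucosinolates, the sulphur-rich defence compounds of the cabbage family, showed how an average can cancel. None of 18 genes of aliphatic glucosinolate synthesis was called in the average, whose median was 0.09, but the medians of the lines were 0.34 in 35S::GA20OX and -0.13 in 35S::JAW, and 13 of the 18 were called between the lines, against 13.2% of all loci. Of 16 indolic glucosinolate genes, the regulator MYB34 (-0.63) and CYP81F4 (-0.41) fell, from -0.16 and -0.10 in 35S::GA20OX and -1.09 and -0.72 in 35S::JAW. MYB34 lost its call without wild type replicates 1 or 3, and CYP81F4 kept its call in 2 of the 9 omissions. JAL35, a jacalin lectin gene of the glucosinolate breakdown list, rose by 0.27 from 0.52 and 0.01, and its call held in none of the 9 omissions. Sugar starvation genes cancelled as well: none of 22 was called, with list medians of -0.15 in 35S::GA20OX and 0.22 in 35S::JAW. ASN1, the dark-induced asparagine synthetase, averaged 0.93 without a call (adjusted p = 0.107, limma) and differed between the lines by 2.23.

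**Figure D5:**
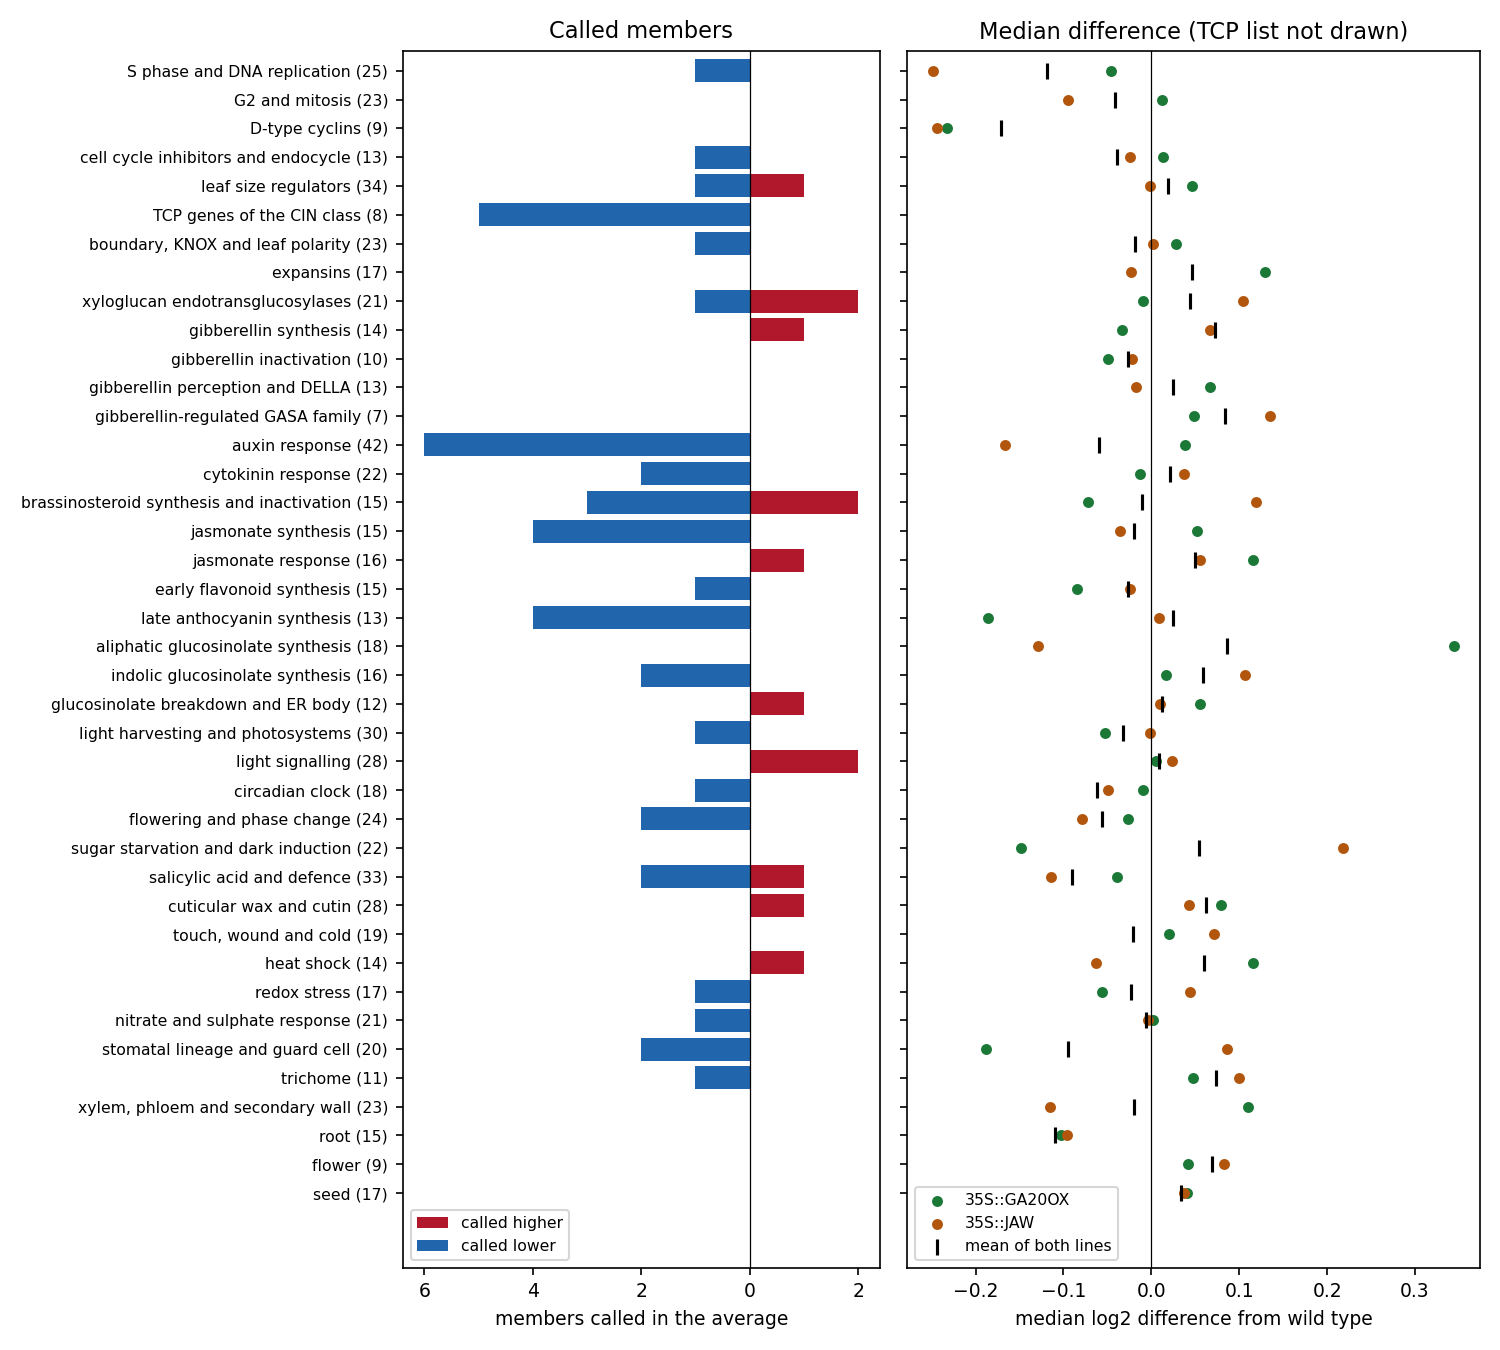
Gene lists, with the number of measured members in brackets. The left panel counts members called lower (blue) or higher (red) in the average, and the right panel gives the median log2 difference from wild type in each line and in the average. At most 6 members of a list were called in a direction, and the lines lie on opposite sides of 0 for lists such as aliphatic glucosinolate synthesis (0.34 and -0.13).

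Markers of other organs did not pass the test in the average. None of 15 root, 9 flower, 17 seed or 23 vascular and secondary wall genes was called, with medians of -0.11, 0.07, 0.03 and -0.02. In the vascular list the lines cancelled, with medians of 0.11 in 35S::GA20OX and -0.12 in 35S::JAW. Between the lines 7 of the 23 were called, against 13.2% of all loci. The list mean lay on single arrays between 5.95 and 6.02 in wild type, 6.01 and 6.15 in 35S::GA20OX and 5.75 and 5.90 in 35S::JAW. The part of this shift in the other differences was not tested. The mean over the root list lay on single arrays between 5.11 and 5.25 in wild type, 5.05 and 5.13 in 35S::GA20OX and 4.99 and 5.16 in 35S::JAW. The ranges of both lines thus overlapped with that of wild type. None of 19 touch, wound and cold genes was called either (median -0.02).

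At the edge of the threshold, the last called members named here were SPL4 (adjusted p = 0.0491, limma) and TSO2 (0.0483). Just beyond it were TAA1, an enzyme of auxin synthesis (-0.46), CYP76C1, a cytochrome P450 (-0.30), and AT5G19730 (-0.45), each with an adjusted p of 0.0501.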

How the data were processed

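Total RNA was hybridised to Affymetrix ATH1 arrays, 3 for each of 3 genotypes. The deposited log2 values were made by the authors with RMA (background correction, quantile normalisation between arrays, one summary of the probes of a locus), per the submitters' processing notes. RMA compresses differences of dim loci and hides a change shared by all. Its version and chip definition: not given in the sources used here. Detection calls and scan batches were not analysed here. Depth does not apply, and the number of arrays limits the precision.

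Names came from a RefSeq table of the assembly TAIR10.1, which held 20508 of the 20777 loci. No genome or sequence was used, and no cross-hybridisation was checked. Of 892 list entries over 40 lists, 750 were used. The rest matched no locus (35), several loci (16), a wrong one (4), a locus not on the table (74) or one already listed (13). Where a symbol stood for several genes, the RefSeq full name chose the locus where it could, a step that the planned matching did not have.

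A limma fit (version 3.58.1, R 4.3.3; lmFit and eBayes, 6 residual and 5.04 prior degrees of freedom) had 1 mean for each genotype over all 9 arrays. P-values are two-sided and were adjusted over all loci by the Benjamini-Hochberg method, with no filter on dim loci. The fit was tested on simulated data. P-values of this fit set a difference of means against the spread between these arrays within genotypes. The difference between the lines does not enter that spread.

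The comparison, lists and tests were chosen with earlier results of these data known. Named loci were the transgenes' targets, the 12 highest and 12 lowest called loci without overlap and without a call between the lines, the 5 highest and 5 lowest also called between the lines with those targets left out, up to 3 called members of a list or the 1 with the lowest p, and 3 just outside the threshold. Other names were chosen after their values were seen. Alternatives were cyclic loess, median centring, leaving out the dimmest 40% of loci, a trend with a robust prior, array weights, a replicate block, a single mean for the 6 transgenic arrays, an adjusted p of 0.01, a 2-fold minimum and leaving out each array.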

Additional observations from a re-analysis of the deposited data

Results flagged for a closer look

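For 59 of the 97 named genes the difference from wild type was not the same in the lines, by limma's test of 35S::JAW against 35S::GA20OX (adjusted p at most 0.0233). The same test called 13.2% of all loci. Its calls also entered the rules by which loci were named, so the count says nothing about these genes as a set. The values that follow are log2 differences of 35S::JAW from 35S::GA20OX, and a negative value means that 35S::JAW was lower. No explanation was tested.

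Among the genes the transgenes act on, the difference was -7.75 for GA20OX1, -3.36 for TCP2, -3.08 for TCP3, -2.95 for TCP4, -1.82 for TCP10 and -2.34 for TCP24. Among the loci called both in the average and between the lines, those targets left out, the 5 highest and 5 lowest averages belonged to loci at which it was 0.46 for AT5G22460, 2.25 for AT5G01740, 0.66 for AT3G53250, 1.49 for SCPL7 and -1.12 for HFR1, and it was -3.10 for AT3G16670, -4.65 for ELI3-1, -3.11 for AT1G31690, -3.02 for AT1G51090 and -3.30 for AT1G31680.

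Among growth and cell wall genes the differences were -0.62 for SMR1, 0.79 for ROT3, -0.99 for KNAT3, 0.97 for XTH7, 0.81 for XTH32, -0.91 for XTH17, -1.06 for SCRM2, -0.57 for KAT2 and -0.79 for ETC2. Among hormone genes they were -1.02 for RGL1, 0.53 for GASA4, -1.66 for HAT2, -1.65 for IAA1, -1.32 for SAUR65, -0.84 for TAA1, -1.57 for CKX4, -1.02 for ARR16, -0.75 for BAS1, -0.72 for DWF4 and 1.27 for BEE3. The jasmonate synthesis genes had -2.43 for ACX1, -2.0 for LOX2 and -0.65 for JAR1.

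Flavonoid genes had 0.68 for CHS, -1.0 for DFR and -0.61 for GSTF12, and glucosinolate genes -0.93 for MYB34, -0.62 for CYP81F4 and -0.51 for JAL35. In light, clock and flowering genes the differences were 0.89 for LHCB4.3, 0.62 for BBX25, -1.22 for ELF4 and -0.66 for SOC1. Stress, defence and nutrient genes had 2.23 for ASN1, -2.54 for CRK22, -1.02 for WRKY54, 2.07 for PR5, 0.55 for CER8, -1.12 for CBF3, 1.05 for HSFA7A, -1.10 for GSTU1 and -2.0 for LSU2. AT5G19730 had -0.45.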

How the results depend on the processing

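The counts of loci called higher and lower in the average, 168 and 192, moved with the way the spread was estimated. An intensity trend with a robust prior gave 280 and 324 loci, with 440 also called between the lines and 130 without overlap and without such a call. Array weights gave 303 lower loci and 124 without overlap and without a call between the lines. With an adjusted p of 0.01 there were 64 higher and 76 lower, 123 also called between the lines and 17 of the other kind, and with a 2-fold minimum 4 and 24. A single mean for the 6 transgenic arrays left 2 higher (AT4G29270 and AT5G22460) and 2 lower (PAP1 and AT3G20370). Leaving out 1 array gave 73 to 176 higher and 86 to 214 lower loci, 129 to 300 also called between the lines and 26 to 84 without overlap and without such a call. The lowest counts came without wild type replicates 1 or 3: 73 higher and 86 lower without replicate 1, and 73 and 90 without replicate 3. Omitting a wild type array costs this contrast more precision than omitting a transgenic one. Counts without wild type replicate 2 or 35S::GA20OX replicate 1 were 111 higher loci each. Without the dimmest 40% of loci, 267 loci had all 6 transgenic arrays above wild type, where fewer loci were counted. Cyclic loess gave 194 and 230 calls and median centring 194 and 179. No called locus turned its sign under any alternative. Of 97 named genes, the sign of 1 turned: GA2OX6, not called, ranged from -0.22 to 0.045 when 1 array was left out, positive only without wild type replicate 3. Of the 360 called loci, 319 remained called with a replicate block, which gave 174 higher and 213 lower. Deviations of same-numbered arrays correlated between -0.10 and 0.25, over 0.1 in 4 of 9 pairs. For arrays of different numbers the range was -0.22 to 0.17, over 0.1 in 4 of 18 pairs. The main fit did not pair the arrays by number, and these values do not settle whether same-numbered arrays belong together. The cause of these shifts was not tested. Dim loci, whose differences RMA compresses, limit what the counts can show.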

Other observations

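Several of the 80 loci that were called without overlap and without a call between the lines have a named product and were picked out after their values were seen. NAC102, a NAC transcription factor gene, read 9.02, 8.82 and 8.86 in wild type, 8.69, 8.31 and 8.56 in 35S::GA20OX and 8.43, 8.33 and 8.18 in 35S::JAW, and fell by 0.48. ERF15, an ethylene response factor gene, fell by 0.45, and OSM34, an osmotin gene, by 0.49. COL1, a relative of the flowering regulator CONSTANS, rose by 0.36, from 7.87, 7.93 and 7.76 to 8.13, 7.99 and 8.15 in 35S::GA20OX and 8.45, 8.24 and 8.35 in 35S::JAW.

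THI2.2, a thionin gene, rose by 0.42 and GolS1, a galactinol synthase gene, by 0.37. PAP3, a purple acid phosphatase gene like PAP8, rose by 0.27, and GH3.9, of the family that conjugates auxin and jasmonate to amino acids, by 0.30. Each of these 8 calls was lost without wild type replicate 1 and without replicate 3, and the highest adjusted p in limma with 1 array left out was between 0.124 for COL1 and 0.185 for GH3.9.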
